A study of Mus musculus with 24 samples.

Results

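Gdf15, Fgf21, Sesn2, Ddit4, Stc2, Vegfa and Vldlr are secreted or growth-restraining targets of the cellular stress response, and their transcript levels are described here in cultured mouse osteoblasts (OBs) with and without a collagen I mutation. The 7 genes were chosen by name, with earlier results of these data known, and each matched 1 entry of the 55335 genes in the count tables. Parietal OBs were isolated from neonatal pups that were either wild type (WT) or heterozygous (Het) for the G610C substitution, a glycine-to-cysteine change in the alpha2 chain of type I procollagen knocked into Col1a2 on a C57BL/6J background. Cells of several pups of 1 genotype were pooled before plating, and all cultures received the same osteogenic differentiation medium. Polyadenylated RNA was sequenced at days 8, 14 and 21, which the study counts from seeding. Each genotype and day had 4 libraries, 24 in all. Because the mutation is a point substitution, gene counts do not check the genotype labels, and nothing in the labels ties a library to separate pools of pups, so p-values measure the spread between these libraries.

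Misfolded or scarce substrates in the endoplasmic reticulum, mitochondria or cytosol activate kinases that phosphorylate the translation factor eIF2alpha, which lowers overall protein synthesis and favours translation of the transcription factor ATF4. ATF4 and its partners then induce the genes of the integrated stress response (ISR). The genes described here act at its output: GDF15 and FGF21 are hormones released by stressed cells, SESN2 and DDIT4 restrain the growth kinase mTORC1, STC2 inhibits the proteases that free insulin-like growth factors, VEGFA draws blood vessels into growing bone, and VLDLR takes up lipoproteins and binds reelin.

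Each library held between 17140202 and 59734231 counts assigned to genes (median 48340136). Replicate 1 of every group was shallower (17140202 to 25825762 counts) than replicates 2 to 4 (28159342 to 59734231) and stood apart from them in several of the genes described. The study's methods describe 2 experiments with cells from different litters, which differed in plating density and in oxygen during expansion. They give 1 well per genotype and day in the first and 2 in the second, together fewer than the 4 libraries of each genotype and day here. The labels do not say which libraries belong to which experiment, so replicates may be wells of 1 pool, a difference between experiments may enter the spread, and results that change are also given without replicate 1. Replicates 2 to 4, which those fits keep, may themselves be wells of 1 pool. Their p-values may then measure only the spread between wells. Levels are relative quantities (RQ), each a count set against 4 housekeeping genes (Sdha, Mrfap1, Actb and Actg1, taken as the geometric mean of their counts in that library), and are printed multiplied by 1000. Folds and p-values came from edgeR's quasi-likelihood test on the counts with that same scale, with Benjamini-Hochberg adjustment over all genes tested, and a gene was called when its adjusted p was under 0.05. Since the cultures were measured in bulk, a larger share of expressing cells and more RNA per cell cannot be told apart.

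The promoters of the 7 genes in RefSeq (GRCm38.p6, which has mm10 coordinates) were searched for a pair of short motifs to show what their start regions share. Every gene had an entry of 300 bases, from 250 bases before a transcript start to 50 after it, and Gdf15, Vegfa and Vldlr had an entry for each of 2 starts. The C/EBP-ATF element TGATGNAA, to which ATF4 binds with a C/EBP partner, occurred on either strand in 1304 of 32851 promoters (3.97%). It was found for Fgf21, on the opposite strand at 139 to 132 bases before the start (chr7:45615611-45615640, minus strand, outside the annotated gene). For Vldlr it stood 200 to 193 bases before the downstream start (chr19:27216809-27216838, plus strand), inside an exon of the transcript that begins at the upstream start. The ACGTG core of hypoxia response elements occurred in 6447 of the promoters (19.6%). It was found for Ddit4 (chr10:59951940-59951969, minus strand, outside the gene), at the downstream start of Vegfa (chr17:46025357-46025386, minus strand, in an exon), for Fgf21 (chr7:45615522-45615551, minus strand, outside the gene) and at the downstream start of Gdf15 (chr8:70632160-70632189, minus strand, in an exon). In Fgf21 and Gdf15 the core lies in the palindrome CACGTG, so that both strands match. No match to TGATGNAA was found in the windows of Gdf15, Sesn2, Ddit4, Stc2 or Vegfa, and none to ACGTG in those of Sesn2, Stc2 or Vldlr. A match describes these letters in this window and is not a measured binding site. The coordinates given are those of the 30-base stretches printed below, each of which holds the motif. The sequences read 5′ to 3′ on the strand of the gene, with the matched motif, in its forward or reverse complement form, in capitals.
Fgf21, C/EBP-ATF element: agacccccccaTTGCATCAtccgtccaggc
Vldlr, C/EBP-ATF element: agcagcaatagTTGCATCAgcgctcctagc
Ddit4, hypoxia core: agaacgttgcgaACGTGcgcccggtgccta
Vegfa, hypoxia core: ggagtgcgtgccCACGTcagagagcaacat
Fgf21, hypoxia core: agtggggagggcACGTGggcgggcctgtct
Gdf15, hypoxia core: acagggcagggcACGTGtgagcatccagtc

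To ask how the mutation affected these genes once the cultures had matured, the 8 Het libraries of days 14 and 21 were compared with the 8 WT libraries, with day in the model. Gdf15, Fgf21 and Sesn2 were upregulated in Het OBs (3 of 7 genes, where 7.27% of the 19845 genes tested were called higher) and Vldlr was downregulated (1 of 7, where 8.87% were called lower). Ddit4, Stc2 and Vegfa did not pass the test. Called in either direction were 4 of the 7 genes, against 16.1% of all genes tested, and the median log2 fold change of the 7 was 0.32, against -0.05 over all genes. Since the 7 were chosen with earlier results of these data known, these shares are no independent evidence. At day 8 none of the 7 was called in edgeR or in DESeq2, although Vldlr had an unadjusted p under 0.05 and was called without replicate 1 (130 of 20287 genes called, 0.641%, or 317 with the replicate number as a block and 3412 without replicate 1). No gene of the 7 had its day 8 groups apart (4.74% of all genes). At day 14 Gdf15 and Fgf21 were called higher (2 of 7, where 1.96% of all genes were called higher), and 709 genes (3.49%) were called in either direction, or 1974 with the block. At day 21 none was called in the fit without the block, 3 had an unadjusted p under 0.05, and 192 of all genes (0.946%) were called, or 956 with the block. The share of called genes that were higher in Het OBs depended on the scale: at days 14 and 21 it was 45.0% with the housekeeping scale, 62.4% with TMM, 66.2% with DESeq2 size factors and 76.5% with total counts, at day 14 it was 56.0%, 73.4%, 74.9% and 87.6%, at day 21 71.4%, 62.4%, 72.8% and 82.8%, and at day 8 50.8%, 68.1%, 68.4% and 64.4%. The pooled comparison uses the same libraries as those of the single days. DESeq2 called 2 of the 7 at day 21 (1564 of all genes), and edgeR called 1 with the block (956 of all genes) and 5 without replicate 1 (4767 of all genes).

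**Figure D1:**
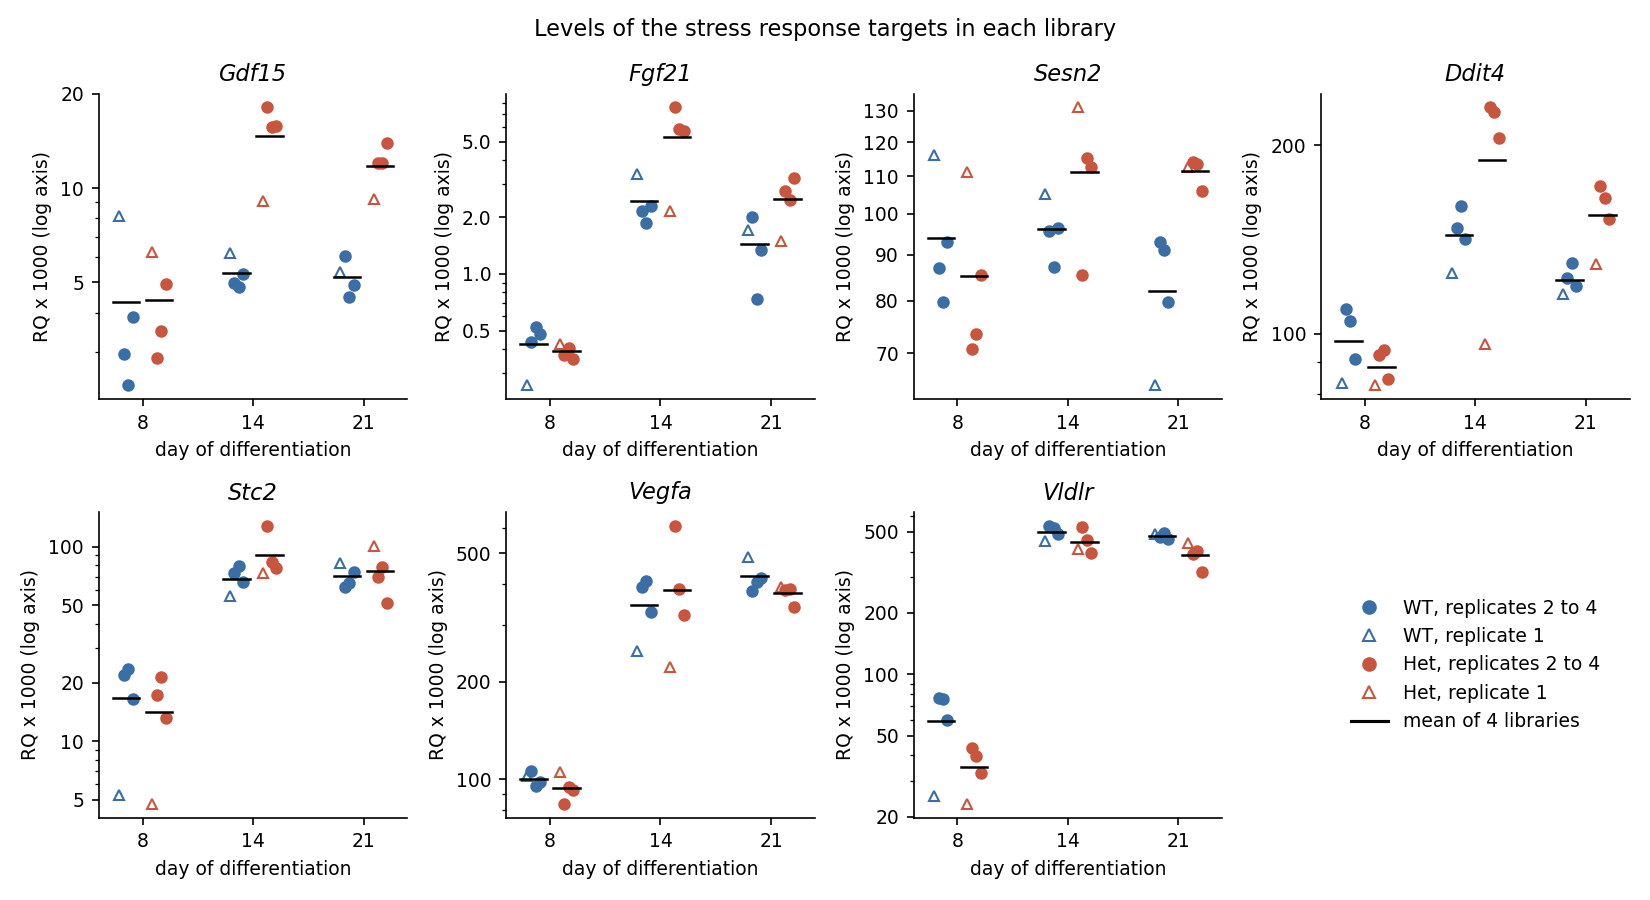
Levels (RQ multiplied by 1000, log axis) of the 7 genes in each of the 24 libraries by day after seeding (the axis reads day of differentiation), with WT in blue, Het in red, replicate 1 as open triangles, replicates 2 to 4 as circles and the mean of 4 libraries as a black bar. The Het points of Gdf15 at days 14 and 21 all lie above the WT points, and Fgf21, Stc2, Vegfa and Vldlr lie far higher at days 14 and 21 than at day 8 in both genotypes.

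Gdf15 (ENSMUSG00000038508.7, chromosome 8, 70629393 to 70632456, minus strand) encodes a circulating stress hormone that suppresses appetite through a receptor in the hindbrain. At day 8 its RQ was 8.15, 2.96, 2.34 and 3.86 in WT replicates 1 to 4 and 6.26, 2.87, 3.50 and 4.94 in the Het ones. The ranges overlapped, and replicate 1 was the highest library in both genotypes. At day 14 WT libraries held 6.21, 4.97, 4.82 and 5.33 and Het libraries 9.07, 18.1, 15.7 and 15.8. At day 21 the WT values were 5.39, 6.08, 4.50 and 4.89 and the Het values 9.21, 12, 12 and 13.9. On both later days every Het library stood above every WT library, with Het replicate 1 the lowest of its group. The 8 later Het libraries all lay above the 8 WT libraries in 0.398% of genes tested, and the 4 of day 14 in 2.17%. Gdf15 was 2.51-fold higher in Het OBs at days 14 and 21 (log2 fold change 1.33 ± 0.13 SE, adjusted p = 3.09e-05, n = 8 per genotype, edgeR), and it was called under each of the 29 alternative fits, with log2 fold changes of 1.25 to 1.5. The exact two-sided permutation test of mean RQ, which shuffled the libraries of both days together without regard to day, gave p = 0.000155, the smallest that 8 against 8 allows. Within replicate 1 alone the Het to WT ratio was 1.58, and within replicates 2 to 4 it was 2.86.

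Taken by day, Gdf15 was 2.77-fold higher at day 14 (adjusted p = 0.0134, edgeR). This call was lost without WT day 14 replicate 2 (adjusted p = 0.0584), replicate 3 (0.0571) or replicate 4 (0.0527), and when any of those numbers was left out of every group (0.139 to 0.367). At day 21 the fold was 2.27 and the adjusted p was 0.0596, which became 0.0210 with the replicate number as a block, 0.0214 to 0.0233 under 3 other scalings and 9.76e-05 without replicate 1. It also passed without WT day 8 replicate 1 or 3 (adjusted p = 0.0139 and 0.0482), WT day 14 replicate 1 (0.0490), or replicate 1 of the Het groups at day 8 (0.0410), day 14 (0.0324) or day 21 (0.0192). At day 8 the fold was 1.03 (95% interval 0.668 to 1.59). The fold at days 14 and 21 exceeded that at day 8 by 1.28 ± 0.37 on the log2 scale (adjusted p = 0.337, edgeR), which passed without replicate 1 (1.2, adjusted p = 0.00614).

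Fgf21 (ENSMUSG00000030827.5, chromosome 7, 45613886 to 45615490, minus strand), an endocrine growth factor that acts through beta-klotho and an FGF receptor, was the least abundant of the 7. Only 3 to 14 reads per library were counted at day 8, and a sum of 42 reads in the 4 WT libraries carries a Poisson 95% interval of 30.3 to 56.8, which covers counting error only. The day 8 RQ was 0.257, 0.438, 0.525 and 0.483 in WT and 0.427, 0.371, 0.405 and 0.355 in Het libraries. At day 14 it was 3.38, 2.16, 1.85 and 2.28 in WT and 2.15, 7.60, 5.84 and 5.67 in Het libraries, so Het replicates 2 to 4 lay above the whole WT group and Het replicate 1 within it. At day 21 WT libraries held 1.70, 2.00, 0.741 and 1.34, and Het libraries 1.48, 2.74, 2.46 and 3.22, with the same arrangement. Fgf21 was 1.98-fold higher in Het OBs at days 14 and 21 (log2 fold change 0.99 ± 0.25 SE, adjusted p = 0.0162, edgeR; exact permutation p = 0.0277). Replicate 1 went the other way, with a Het to WT ratio of 0.716 against 2.66 in replicates 2 to 4, and 6 of 8 same-numbered pairs were higher in Het. The call was lost when replicate 2, 3 or 4 was left out of every group (adjusted p = 0.114 to 0.220). At day 14 the fold was 2.23 (adjusted p = 0.0479), and leaving out any of 17 of the 24 libraries, or the filter on low counts, took the adjusted p past the threshold. The highest of those p-values was 0.164, without Het day 14 replicate 2. The day 21 fold was 1.73 (adjusted p = 0.232, or 0.00477 without replicate 1), and the day 8 fold was 0.883 (adjusted p = 0.953).

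Sesn2 (ENSMUSG00000028893.8, chromosome 4, 132492032 to 132510501, minus strand) encodes a leucine-sensing inhibitor of mTORC1. WT libraries held 116, 87.1, 79.9 and 93.1 at day 8, 105, 95.5, 87.4 and 96.3 at day 14, and 64.5, 93.0, 91.1 and 79.7 at day 21. Het libraries held 111, 70.8, 73.5 and 85.4 at day 8, 131, 85.6, 115 and 113 at day 14, and 113, 114, 113 and 106 at day 21. At day 21 the groups were apart, as were those of Gdf15 and Vldlr (3 of 7 genes, against 11.7% of all genes tested, 7.21% with Het higher and 4.49% with Het lower), whereas at day 14 Het replicate 2 fell below every WT library and at day 8 the groups overlapped. Sesn2 was 1.25-fold higher in Het OBs at days 14 and 21 (log2 fold change 0.32 ± 0.09 SE, adjusted p = 0.0216, edgeR; 7 of 8 pairs higher). It kept the call when any single library was left out (adjusted p up to 0.0457), and lost it without replicate 3 of every group (adjusted p = 0.138) or replicate 4 (0.187). By day, the folds were 0.906 at day 8, 1.16 at day 14 and 1.36 at day 21 (adjusted p = 0.830, 0.425 and 0.145). The day 21 difference passed with DESeq2 size factors (0.0427), total counts (0.0444), the DESeq2 test (0.00694) and without replicate 1 (0.0204).

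Ddit4 (ENSMUSG00000020108.4, chromosome 10, 59949669 to 59951834, minus strand), also known as REDD1, restrains mTORC1 through the TSC complex and is a textbook target of hypoxia, glucocorticoids and ATF4. Its WT RQ was 83.3, 110, 105 and 91.2 at day 8, 125, 148, 160 and 142 at day 14, and 116, 123, 130 and 119 at day 21. In Het libraries it was 82.7, 92.5, 94.1 and 84.6 at day 8, 96.3, 230, 226 and 205 at day 14, and 129, 172, 165 and 152 at day 21. Replicate 1 was the lowest library in each of the 6 groups, and the Het replicate 1 at day 14 lay below every WT library of that day, while the other Het libraries lay above them. The 1.30-fold difference at days 14 and 21 missed the threshold (log2 fold change 0.37 ± 0.13 SE, adjusted p = 0.0655, edgeR). It passed with the replicate number as a block (adjusted p = 0.0233), in DESeq2, and under each other scaling (adjusted p = 0.0226 to 0.0486). It also passed without Het day 14 replicate 1 (0.47 on the log2 scale, adjusted p = 0.000730), without Het day 21 replicate 1 (adjusted p = 0.0398), and without replicate 1 of every group (adjusted p = 1.78e-05). In all, 10 of the 29 alternative fits called Ddit4. Within replicate 1 alone the ratio was 0.937, and within replicates 2 to 4 it was 1.40. At day 14 alone the fold was 1.32 (adjusted p = 0.183, or 0.00111 without Het day 14 replicate 1), and at day 21 it was 1.27 (adjusted p = 0.335, or 0.00108 without replicate 1).

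Stc2 (ENSMUSG00000020303.2, chromosome 11, 31357307 to 31370074, minus strand) encodes the secreted glycoprotein stanniocalcin-2. WT libraries held 5.32, 21.9, 23.4 and 16.5 at day 8, 55.8, 72.7, 79.4 and 66.0 at day 14, and 82.5, 62.0, 64.6 and 73.9 at day 21. The Het values were 4.77, 17.3, 21.3 and 13.1 at day 8, 73.4, 128, 82.8 and 77.5 at day 14, and 101, 69.6, 78.6 and 51.3 at day 21. Genotypes overlapped on every day, and replicate 1 was the lowest at day 8 but the highest at day 21 in both. The fold at days 14 and 21 was 1.18 (95% interval 0.959 to 1.45, adjusted p = 0.265, edgeR), with 7 of 8 pairs higher in Het. The folds by day were 0.841 at day 8, 1.32 at day 14 and 1.06 at day 21, with adjusted p of 0.900, 0.530 and 0.963.

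Vegfa (ENSMUSG00000023951.17, chromosome 17, 46016993 to 46032369, minus strand), the main attractant of blood vessels to bone and a classic hypoxia target, held 102, 106, 95.4 and 98.0 in WT and 105, 83.8, 94.4 and 92.2 in Het libraries at day 8. At day 14 the values were 248, 392, 410 and 329 in WT and 222, 607, 388 and 322 in Het libraries. At day 21 they were 486, 382, 406 and 420 in WT and 393, 384, 387 and 341 in Het libraries. Ranges overlapped on every day, and Het day 14 replicate 2 was the highest of the 24 libraries. No genotype difference was detected at days 14 and 21 (fold 0.995, 95% interval 0.786 to 1.26, adjusted p = 0.986, edgeR). The point estimate lay at 0.935 at day 8, 1.12 at day 14 and 0.888 at day 21 (adjusted p = 0.952, 0.699 and 0.744).

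Vldlr (ENSMUSG00000024924.14, chromosome 19, 27216484 to 27254231, plus strand) was the 1 gene of the 7 lower in Het OBs. At day 8 WT libraries held 25.3, 76.5, 75.7 and 59.7 and Het libraries 23.1, 43.7, 40.0 and 33.0, so that the replicate 1 libraries were the lowest of both groups and the genotypes were apart in replicates 2 to 4. WT libraries held 451, 534, 521 and 490 at day 14 and 490, 470, 491 and 461 at day 21. Het libraries held 413, 529, 453 and 395 at day 14 and 439, 389, 401 and 317 at day 21. The day 14 groups overlapped, the day 21 groups did not, and every one of the 12 same-numbered pairs was lower in Het. At days 14 and 21 the fold was 0.851 (log2 fold change -0.23 ± 0.07 SE, adjusted p = 0.0417, edgeR; 0 of 8 pairs higher). This call was lost under the 3 other scalings (adjusted p = 0.0880 to 0.109) and in DESeq2 (0.0636), with no filter on low counts (0.0722) and in the model of all 24 libraries (0.344). It was also lost, with adjusted p of up to 0.0851, when any 1 of 13 of the 16 libraries was left out, and without replicate 2, 3 or 4 of every group (0.103 to 0.259), the exceptions among single libraries being WT day 14 replicate 1, Het day 14 replicate 2 and Het day 21 replicate 1. At day 8 the fold was 0.589 (95% interval 0.424 to 0.818, adjusted p = 0.145), and it passed without WT day 8 replicate 1 (log2 fold change -1.01, adjusted p = 0.00148) and without replicate 1 of every group (-0.86, adjusted p = 0.000203). At day 21 the fold was 0.808 (adjusted p = 0.541, or 0.0351 without replicate 1). The day 8 ratio was 0.914 within replicate 1 and 0.551 within replicates 2 to 4.

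**Figure D2:**
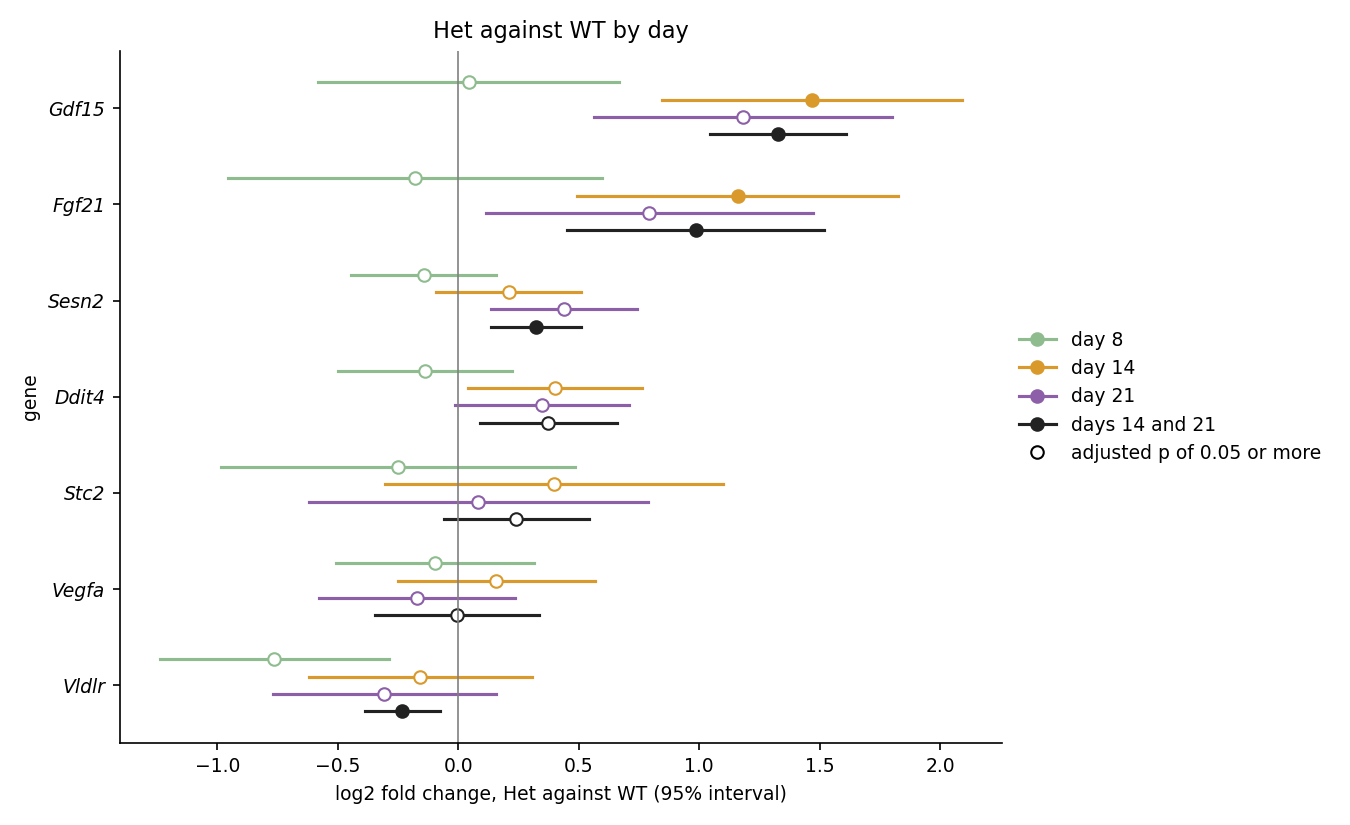
Log2 fold change of Het against WT OBs (x axis) with its 95% interval for each gene (y axis) at day 8 (green), day 14 (orange), day 21 (purple) and days 14 and 21 together (black), where open points had an adjusted p of 0.05 or more. The Gdf15 estimates at days 14 and 21 lie at 1.47 and 1.18 and that at day 8 at 0.04, and the Vldlr estimates lie below 0 on every day.

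Whether the genotype effect changed with maturation was tested as a difference of differences. None of the 7 genes was called for days 14 and 21 against day 8 in edgeR or DESeq2 (36 of 20287 genes called, 0.177%, or 66 with the block), and 4 had an unadjusted p under 0.05. The estimate was positive for each of the 7 genes, with a median of 0.51 on the log2 scale against 0.02 over all genes. Without replicate 1, where 929 of all genes were called, Gdf15, Fgf21, Ddit4 and Vldlr were called. The adjusted p was 0.0216 for Fgf21 (1.65), 0.000488 for Ddit4 (0.65) and 0.0288 for Vldlr (0.60). Ddit4 was also called without Het day 14 replicate 1 alone (0.62, adjusted p = 0.0152). Sesn2 and Ddit4 were lower in Het in all 4 pairs at day 8 and higher in all 4 at day 21, and their tests of the difference gave adjusted p of 0.644 and 0.737. Between days 14 and 21 the genotype effect differed for 0 of 20287 genes in edgeR (0%; 451 at an unadjusted p under 0.05), and for none of the 7.

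Maturation was then compared within each genotype. From day 8 to day 14, Fgf21, Ddit4, Stc2, Vegfa and Vldlr rose in WT OBs (5 of 7 genes, where 23.6% of all genes were called higher), and each of the 7 rose in Het OBs (26.5% called higher). The median gene shifted by 0.12 on the log2 scale in both genotypes with the housekeeping scale, by -0.01 in WT with TMM scaling and by -0.16 with total counts. Of the genes called in WT, 76.2% were higher with the housekeeping scale, 49.1% with TMM, 53.6% with DESeq2 size factors and 29.0% with total counts. In Het OBs these shares were 74.4%, 46.7%, 51.8% and 33.6%. From day 14 to day 21 they were 58.5%, 45.6%, 49.2% and 50.7% in WT and 81.0%, 43.3%, 55.1% and 50% in Het OBs. The groups compared in WT and in Het share no library, but both tests take their spread from all 24 libraries. Comparisons that start and end at day 14 also share the day 14 libraries.

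Vldlr rose 8.37-fold in WT and 12.8-fold in Het OBs (adjusted p = 6.63e-09 and 5.81e-10, edgeR), from 23.1 to 76.5 in the day 8 libraries to 395 to 534 in the day 14 libraries. Its log2 change exceeded that of the median gene by 2.94 in WT and 3.55 in Het. Fgf21 rose 5.40-fold in WT and 13.6-fold in Het OBs (adjusted p = 1.65e-05 and 7.68e-08). Stc2 rose 4.01-fold and 6.28-fold (adjusted p = 0.000153 and 6.46e-06), and Vegfa 3.44-fold and 4.10-fold (adjusted p = 7.46e-07 and 1.21e-07). The calls of these 4 genes stood in every alternative fit. Every day 14 library lay above every day 8 library for 5 of the 7 genes in WT (28.4% of all genes) and 6 in Het OBs (19.4%), the exceptions being Sesn2 in both genotypes and Gdf15 in WT. Ddit4 rose 1.48-fold in WT (adjusted p = 0.0171) and 2.15-fold in Het OBs (adjusted p = 4.01e-05). Its WT call was lost under the 3 other scalings (adjusted p = 0.0801 to 0.237), in DESeq2 (0.0604), without WT day 8 replicate 1 (0.0561), without WT day 14 replicate 3 (0.0543) and without replicate 2, 3 or 4 of every group (0.0623 to 0.141).

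Gdf15 rose 3.37-fold in Het OBs (adjusted p = 9.05e-05), while the WT fold was 1.26 (95% interval 0.814 to 1.94, adjusted p = 0.456), and the difference between these changes was tested for days 14 and 21 together, as given above. Without WT day 8 replicate 1 the WT log2 change was 0.80 (adjusted p = 0.0218). Sesn2 had a fold of 1.02 in WT OBs (adjusted p = 0.906), and its sign turned negative under the 3 other scalings. In Het OBs Sesn2 rose 1.31-fold (adjusted p = 0.0432), a call lost under each of those scalings (adjusted p = 0.0884 to 0.471) and when any 1 of 12 of the 24 libraries was left out, up to 0.142 without Het day 8 replicate 2. It was also lost in DESeq2 (0.0758), with no filter on low counts (0.0617) and without replicate 2, 3 or 4 of every group (0.0804 to 0.248).

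From day 14 to day 21 none of the 7 genes was called in WT OBs (8.62% of all genes called), and 1 had an unadjusted p under 0.05. Without replicate 1, Ddit4 was called lower there (log2 fold change -0.28, adjusted p = 0.0150). None was called in Het OBs either (4.79% of all genes called), again with 1 at an unadjusted p under 0.05. That gene was Fgf21 in both, with folds of 0.604 in WT (adjusted p = 0.202) and 0.469 in Het OBs (adjusted p = 0.0507, edgeR). The Het decrease passed with the replicate block (log2 fold change -1.08, adjusted p = 0.0184), in DESeq2 (adjusted p = 0.0114), under the 3 other scalings (0.0359 to 0.0424), and without WT day 8 replicate 1, WT day 14 replicate 1, WT day 21 replicate 3, Het day 8 replicate 1 or Het day 14 replicate 1 (0.00865 to 0.0459), and without replicate 1 of every group (0.00111). Ddit4 in Het OBs had a log2 fold change of -0.29 (adjusted p = 0.383) and passed without Het day 14 replicate 1 (-0.51, adjusted p = 0.00674) and without replicate 1 of every group (-0.43, adjusted p = 0.000884).

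**Figure D3:**
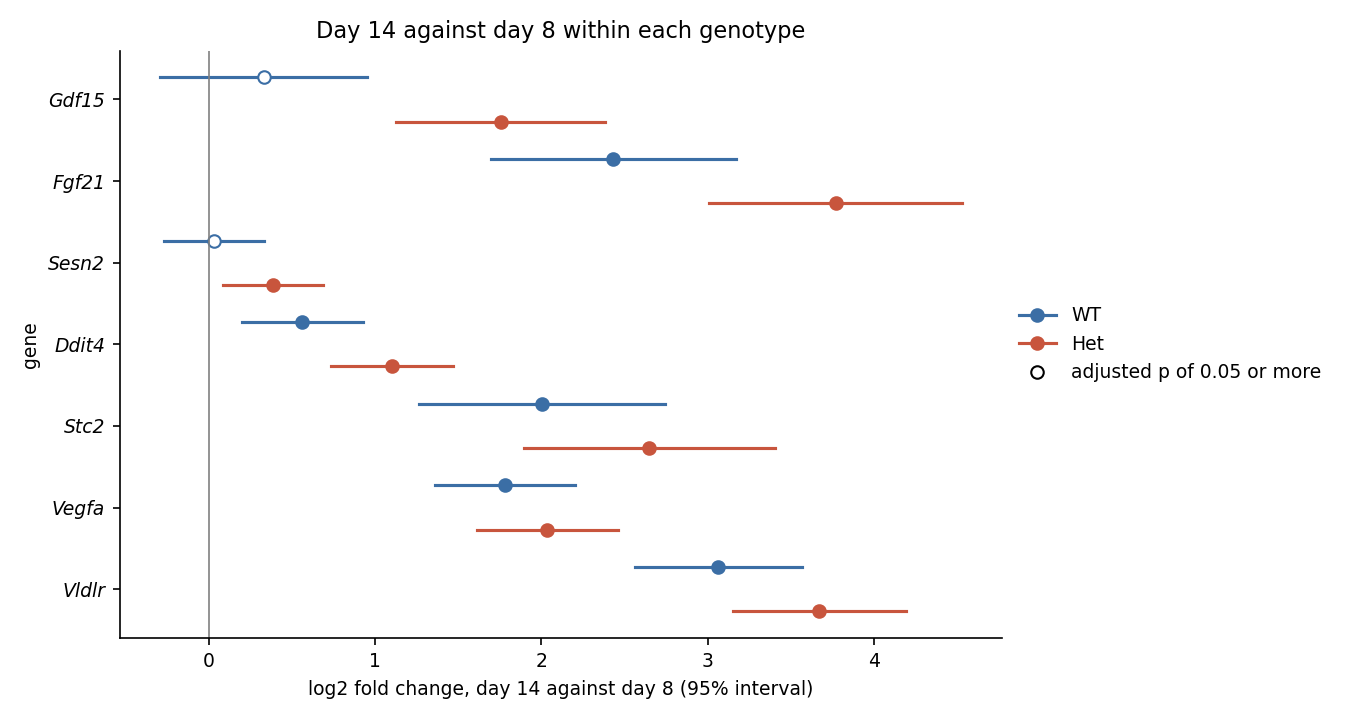
Log2 fold change from day 8 to day 14 (x axis) with its 95% interval for each gene (y axis) in WT (blue) and Het (red) OBs, where open points had an adjusted p of 0.05 or more. Vldlr lies farthest right in WT at 3.07 and Fgf21 in Het at 3.77, and the open points are Gdf15 and Sesn2 in WT.

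Compared per length (RQ multiplied by 1000, per kilobase of the gene model), levels spanned a wide range. In WT OBs at day 8 the order was Ddit4 (55.4 ± 6.91 SD, n = 4), Sesn2 (27.1 ± 4.51), Vegfa (23.4 ± 1.08), Vldlr (5.89 ± 2.38), Stc2 (3.24 ± 1.58), Gdf15 (2.34 ± 1.42) and Fgf21 (0.448 ± 0.124). The libraries of Sesn2 and Vegfa overlapped, as did those of Vldlr and Stc2 and of Stc2 and Gdf15. By day 14 Vegfa (80.4 ± 17) had reached Ddit4 (81.8 ± 8.35) and Vldlr (49.6 ± 3.67) had passed Sesn2 (27.7 ± 2.10) in WT OBs, and at day 21 Vegfa was first (98.9 ± 10.4), above every Ddit4 library. In Het OBs Ddit4 and Vegfa overlapped at days 14 (108 ± 35.9 and 89.8 ± 38.1) and 21 (88.2 ± 10.7 and 87.7 ± 5.56). Gdf15 and Fgf21 were the lowest of the 7 in every group, and in Het OBs at day 14 they stood at 7.92 ± 2.10 and 5.59 ± 2.40.

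The receptors, binding partners and paralogs of the 7 proteins (28 genes, 25 of them tested) were called at days 14 and 21 at about the rate of all genes, with 3 called higher and 1 lower in Het OBs, and 16.1% of all genes called in either direction. The lower one was Fgfr3, an FGF receptor and known brake on cartilage growth, with a mean RQ of 387 ± 70.5 in WT and 245 ± 135 in Het OBs at day 14 and 298 ± 20.7 and 186 ± 91.8 at day 21 (SD, n = 4). Its log2 fold change was -0.67 ± 0.22 SE (adjusted p = 0.0495, edgeR), which was lost in 14 of the 16 fits that left out 1 library (adjusted p up to 0.0971), all but those without replicate 1 of a Het group. It was also lost with total counts (0.0572), with no filter on low counts (0.0601), in the model of all 24 libraries (0.0515) and without replicate 2, 3 or 4 of every group (0.224 to 0.328). The 3 higher ones averaged under 50 counts and are named after their values were seen: Kdr (0.99 ± 0.24 SE, adjusted p = 0.0127) and Flt1 (1.19 ± 0.38, adjusted p = 0.0418), receptors of VEGFA, and Reln (1.23 ± 0.22, adjusted p = 0.00273), a ligand of VLDLR. Reln was also called higher in Het OBs at day 8 (2.22 ± 0.44, adjusted p = 0.0253), where 0.325% of all genes were called higher, and no other partner was called there. At day 14 Kdr was (1.38 ± 0.36, adjusted p = 0.0412). Gfral, the receptor of GDF15, was at 0 counts in each of the 24 libraries, and Klb, which encodes beta-klotho, had at most 6 counts in a library.

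Among the partners with higher counts, the FGF receptors Fgfr1 and Fgfr2, the sestrins Sesn1 and Sesn3, the DDIT4 paralog Ddit4l, the TSC subunits Tsc1 and Tsc2, the stanniocalcin Stc1, the STC2-inhibited proteases Pappa and Pappa2, and the Pappa substrate Igfbp4 were not called at days 14 and 21 between genotypes. Neither were the VEGF family members Vegfb and Vegfd, the co-receptors Nrp1 and Nrp2, or the lipoprotein receptors Lrp8 and Lrp1. From day 8 to day 14 in WT OBs, 6 of the 25 partners rose (23.6% of all genes) and 5 fell (7.36% of all genes). Nrp2 rose by 1.02 ± 0.26 on the log2 scale (adjusted p = 0.00474), Fgfr1 by 0.76 ± 0.09 (adjusted p = 2.24e-06), and Pappa fell by 0.91 on that scale (adjusted p = 0.00155), as did Sesn3 (-0.66 ± 0.17, adjusted p = 0.00546).

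The other ISR genes were set beside the 7, of which only Gdf15, Fgf21 and Sesn2 were called higher in Het OBs at days 14 and 21. Of 40 listed genes, 36 were called higher in Het OBs at days 14 and 21 (7.27% of all genes) and 1 lower (8.87%). The median log2 fold change of the list was 0.57. The lower one was Slc38a2, an amino acid transporter, named after its value was seen. Trib3 (2.78 ± 0.14 SE), Slc7a3 (1.71 ± 0.26) and Cth (1.6 ± 0.28) were the highest. Without replicate 4 of every group the number called higher was 10 (139 of all genes called in either direction), and without replicate 3 it was 16 (260 of all genes). At day 8 none of the 40 was called in either direction (0.641% of all genes), with a median of 0.05. At day 14 the number called higher was 22 (1.96% of all genes), and at day 21 it was 11 (0.675% of all genes). The list was drawn up with results of these data known, so its direction is no independent evidence.

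Pathways that share targets with the 7 genes are set here against 7.27% of all genes called higher and 8.87% called lower at days 14 and 21, and against 23.6% (WT) and 26.5% (Het) called higher from day 8 to day 14. None of 16 hypoxia targets was called between genotypes at days 14 and 21 (median -0.07). From day 8 to day 14, 15 of the 16 rose both in WT (median 1.45) and in Het OBs (1.65). Over that interval 25 of the 40 other ISR genes rose in WT and 37 in Het OBs. So did each of the 7 osteoblast and 6 macrophage markers in both genotypes, but only 1 of 16 p53 targets in each. Fgf21, Ddit4, Stc2, Vegfa and Vldlr also rose in both genotypes, and the cause was not tested. Among 16 p53 targets, 2 were called higher at days 14 and 21 (Cdkn1a 0.42 ± 0.05 SE and Tigar 0.28 ± 0.08) and none lower. Cdkn1a was called in all 29 alternative fits and Tigar in 20 (adjusted p up to 0.0564 with 1 library left out). Of 12 NRF2 targets, 2 were higher and 3 lower, led by Gsta4 (-0.42 ± 0.11), Gclm (0.37 ± 0.11) and Me1 (-0.34 ± 0.05). These were called in 24, 17 and 28 of the 29 alternatives, and Gclm kept its call in 7 of the 16 fits without 1 library (adjusted p up to 0.0620). Of 7 glucocorticoid targets 1 was higher (Fkbp5, 0.30 ± 0.08) and none lower, and Fkbp5 was called in 19 of 29 alternatives and 10 of the 16 fits without 1 library (adjusted p up to 0.0543).

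**Figure D4:**
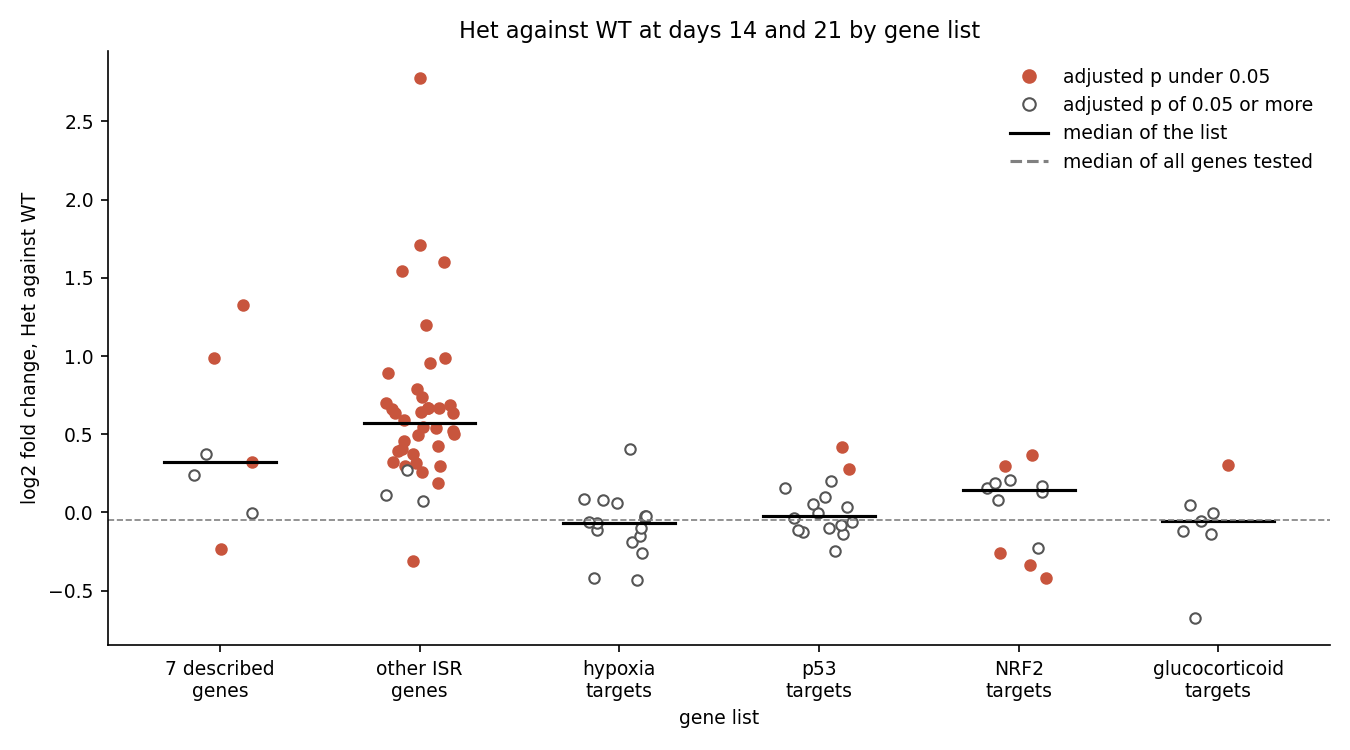
Log2 fold change of Het against WT OBs at days 14 and 21 (y axis) for the 7 described genes and 5 gene lists (x axis), with genes called at an adjusted p under 0.05 filled, others open, list medians as black bars and the median of all genes tested dashed. The other ISR genes have their median at 0.57 and the hypoxia targets at -0.07, and the 7 genes range from -0.23 to 1.33.

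Over the 24 libraries, the genes whose log2 RQ followed each of the 7 most closely were sought among the 14889 genes that averaged 50 counts or more. These correlations are descriptions across libraries that share day, genotype, depth and the housekeeping scale. For Gdf15 they were Slc3a2 (Pearson r = 0.95), a subunit of amino acid transporters, Lars (0.943), a tRNA synthetase, and Ppp1r15a (0.929), which encodes a phosphatase subunit that reverses eIF2alpha phosphorylation. For Ddit4 they were Phf10 (0.957), the hypoxia-induced carbonic anhydrase Car9 (0.931) and Cdh2 (0.930), and for Stc2 they were Ankrd37 (0.984), another hypoxia-induced gene, Prelid2 (0.978) and Rcor2 (0.977). Vegfa was followed by Ccn4 (0.991), Metrnl (0.988) and Snx30 (0.988), and Vldlr by Zfp652, Abi3 and Phospho1, a phosphatase of matrix mineralization (each 0.996). The nearest to Sesn2 were Trim35 (0.848), Slc12a7 (0.830) and Fbxo42 (0.817). Among the 7 themselves r was highest between Stc2 and Vldlr (0.958) and lowest between Sesn2 and Stc2 (0.0674), while Gdf15 and Fgf21 gave 0.755.

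Markers of other cells in the cultures moved with genotype too. Against 7.27% of all genes called higher and 8.87% lower, macrophage markers (Cd68, Adgre1, Csf1r, Ptprc, Lyz2 and Cd14) were called higher in Het OBs at days 14 and 21 for 6 of 6 genes, with a summed RQ, here without the factor of 1000, of 1.12 to 5.69 in WT and 2.44 to 15 in Het libraries. At day 8 their sums were 0.206 to 0.422 in WT and 0.355 to 0.856 in Het libraries. Osteoblast markers were called lower for 5 of 7, with a summed RQ of 183 to 340 in WT and 170 to 284 in Het libraries, and were present in every library. By day, these sums were 183 to 330 in WT and 170 to 233 in Het libraries at day 14, and 314 to 340 and 202 to 284 at day 21. Single markers were called in other lists: chondrocyte markers were lower for 1 of 5 (3.57 to 21.9 in WT and 1.17 to 22.9 in Het libraries), osteoclast markers for 1 of 5 (0.874 to 1.06 and 0.662 to 1.07), and fibroblast and smooth muscle markers were higher for 1 of 4 (2.91 to 4.93 and 3.08 to 5.21). Of the endothelial, adipocyte and muscle markers, 2 of 5, 1 of 5 and 1 of 5 had enough counts to be tested, none of these was called, and their summed RQ was at most 0.0182 in every library, with Cdh5, Tie1, Emcn, Adipoq, Plin1, Cidec, Lep, Myod1, Ckm, Actn2 and Myh3 each averaging under 10 counts. The part of these cells in the differences of Gdf15, Fgf21, Sesn2 and Vldlr was not tested.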

How the data were processed

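Polyadenylated RNA of 24 cultures (2 genotypes, 3 days, 4 libraries each) was sequenced from TruSeq libraries. For each library the authors deposited a table of gene lengths and unnormalized read counts, and the submitters' processing notes name cutadapt 2.5, STAR 2.73a, Subread, featureCounts 1.6.4 and mm10. The strand setting of the counting is not given in the sources used here, and no exon of another gene overlaps those of the 7 genes. Of 55335 gene identifiers, 54587 matched GENCODE M21, which gave the coordinates.

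The 7 genes and all lists were chosen with earlier results of these data known. Libraries were scaled to the 4 housekeeping genes that the study used. Genes were kept by filterByExpr and tested with edgeR 4.0.16 (R 4.3.3), in a model of day and genotype for days 14 and 21 (19845 genes) and in a model with a mean for each of the 6 groups otherwise (20287 genes). The scripts were tested on simulated data. Same-numbered WT and Het libraries deviated together (Pearson r of 0.199 to 0.788 over 12 pairs, median -0.0731 over 36 other pairs). Much of this contrast is replicate 1: among replicates 2 to 4, r was 0.199 to 0.482 for 9 same-numbered and 0.0715 to 0.439 for 18 other pairs. No label says that same-numbered WT and Het cultures were paired. The replicate number, taken from the labels, was used for counts of pairs, which are descriptions, and for the block. The main models hold no replicate term, and the block is an alternative. No 2 replicates agreed within counting noise (lowest chi-square per degree of freedom 4.78 over 36 pairs). Named were all 7 genes, partners averaging at least 50 counts (1 of which is not reported here), at most 3 called genes of each other list, and the 3 genes most correlated with each of the 7, except Fgf21, which averaged under 50 counts. Alternatives were other scalings, DESeq2 1.42.0, other filters, replicate terms, libraries left out and exact permutation tests (SciPy 1.17.1).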

Additional observations from a re-analysis of the deposited data

Results flagged for a closer look

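Vegfa in Het OBs at day 21 was flagged because 1 of its 4 libraries stood far from the rest: replicate 4 had an RQ (multiplied by 1000) of 341, while the others lay between 384 and 393. Its gap to the nearest library was 0.841 of the whole range, above Dixon's 95% critical value for 4 samples. It was the 1 flag among 42 groups of 4 libraries, and chance flags about 5% of groups. No test of a difference between genotype effects called any of the 7 genes with all 24 libraries.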

How the results depend on the processing

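With the replicate number as a block, Ddit4 passed at days 14 and 21 (log2 fold change 0.35), Gdf15 at day 21 (1.2) and Fgf21 fell from day 14 to day 21 in Het OBs (-1.08); among the 7 genes the block changed no other call. With the block, the genes called between genotypes numbered 317 at day 8 instead of 130, 1974 at day 14 instead of 709, 956 at day 21 instead of 192, and 66 instead of 36 for the change of the genotype effect after day 8, and from day 14 to day 21 they numbered 2683 in WT instead of 1748 and 1706 in Het OBs instead of 972. With replicate 1 set against replicates 2 to 4 as a covariate, the same counts were 393, 2371, 1282, 71, 2909 and 2056, and 5058 instead of 3204 at days 14 and 21. DESeq2's Wald test called 520, 2267, 1564, 95, 2941, 2050 and 5102. At day 14 the scalings by TMM, DESeq2 size factors and total counts called 1289, 1386 and 1740 genes, at day 21 they called 420, 515 and 857, and with no filter on low counts 263 genes were called at day 14, 92 at day 21 and 598 from day 14 to day 21 in Het OBs.

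Of the 7 genes, 1 was called at day 14 instead of 2 with no filter, and also with a filter at a mean of 50 counts, which left Fgf21 untested. At day 21 1 was called instead of 0 with TMM, the block and the covariate, and 2 with DESeq2 size factors, total counts and the Wald test. From day 14 to day 21 in Het OBs 1 was called instead of 0 under those 6 settings. Leaving out single libraries or 1 replicate number gave 1 to 5 of the 7 genes called at days 14 and 21 (139 to 7573 of all genes), 0 to 1 at day 8 (0 to 3412), 0 to 3 at day 14 (6 to 5723), 0 to 5 at day 21 (4 to 4767), 0 to 4 for the change after day 8 (0 to 929), 0 for that between days 14 and 21 (0 to 13), 4 to 6 from day 8 to day 14 in WT (3689 to 8804), 6 to 7 in Het OBs (4564 to 10813), and from day 14 to day 21 0 to 1 in WT (34 to 3527) and 0 to 2 in Het OBs (28 to 3702). Without replicate 2, 3 or 4 the fits keep the shallower and divergent replicate 1 and fewer libraries. Without replicate 1 they also keep fewer libraries, which may be wells of 1 pool, so their smaller p-values may measure only the spread between wells.

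Within replicate 1 alone the sign turned for Fgf21 (-0.48 at days 14 and 21, -0.65 at day 14) and for Ddit4, which was not called (-0.09 and -0.38). With TMM, DESeq2 size factors, total counts and the Wald test, Vegfa at days 14 and 21 moved from -0.0068 to 0.037, 0.049, 0.078 and 0.048, Sesn2 from day 8 to day 14 in WT from 0.03 to -0.10, -0.076, -0.26 and -0.076, and Sesn2 from day 14 to day 21 in Het OBs from 0.0055 to -0.083, -0.057, -0.069 and -0.056; Stc2 from day 14 to day 21 in WT was -0.0032 with TMM. With libraries left out, log2 fold changes crossed 0 for Vegfa at days 14 and 21 (-0.16 to 0.069), at day 14 (-0.15 to 0.35) and in the change after day 8 (-0.14 to 0.20), Gdf15 at day 8 (-0.17 to 0.51), Stc2 at day 8 (-0.51 to 0.0078) and day 21 (-0.088 to 0.25), Fgf21 (-0.61 to 0.061) and Ddit4 (-0.27 to 0.050) in the change between days 14 and 21, and, over maturation, Sesn2 (-0.038 to 0.15 from day 8 to day 14 in WT, -0.11 to 0.092 from day 14 to day 21 in Het), Gdf15 (-0.15 to 0.049) and Stc2 (-0.12 to 0.16) from day 14 to day 21 in WT, and Vegfa (-0.24 to 0.27) in Het OBs. The causes were not tested. At 3 to 14 reads per library at day 8, the depth limits Fgf21 most. The 24-library fit of single days takes its spread from all 6 groups, replicate 1 included.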
